A study of Mus musculus with 2 samples.

Results

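Neutrophils were examined in 2 single-cell RNA libraries of mouse kidney, 1 from control mice and 1 from mice with reduced endothelial PHD3. A neutrophil was defined as a cell barcode with at least 500 UMIs (unique molecular identifiers, each a counted transcript), at least 200 genes and at most 50% of UMIs from mitochondrial genes. It also had to hold at least 20 UMIs of S100a8 and S100a9 together, at least 1 UMI of Csf3r, Cxcr2 or Retnlg, fewer than 5 UMIs of C1qa, C1qb and C1qc together, and 0 UMIs of Cd3e. Neutrophils were thus chosen by measured values, the counts of these 9 genes, and what the rule used is no finding. These conditions left 61 of 9452 kept barcodes in the control library and 420 of 10026 in the haplodeficient library.

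The haplodeficient mice carried the genotype Cdh5-CreERT2; Phd3f/+, and the control mice were Cre-. Cre in this design is driven by the Cdh5 promoter, which is active in endothelial cells, so neutrophils are not the cells in which 1 Phd3 allele was to be removed. Phd3 is an older name of Egln3, which encodes an oxygen-dependent prolyl hydroxylase. Both groups received 4 tamoxifen injections and had the artery of 1 kidney clamped, and the injured kidneys were dissociated 14 days later and run as batch 1 on the 10x 3′ platform. The labels do not say how many animals each library holds, nor whether control mice carried the floxed allele. With 1 library per group there was no test between groups, and all intervals below are exact 95% intervals that cover counting error only. Where a count was 0, a floor of 3 counts stands for the most it allows, also in folds written as at least N. This floor lies below the exact upper limit, so exact limits are given beside it.

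Neutrophils are short-lived granulocytes that leave the bone marrow with their granule proteins already made. Primary and secondary granule genes are therefore expressed mainly in marrow precursors, while mature cells express the gelatinase granule genes, chemokine receptors and, in inflamed tissue, interleukin-1 and chemokines. Neutrophils depend on glycolysis, and prolyl hydroxylases mark hypoxia-inducible factor (HIF) for degradation when oxygen is present. In injured kidney and other tissues a population of neutrophils carrying Siglec-F has been described beside the classical form.

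The files hold 134190236 UMIs over 1342632 barcodes for the control library and 114668145 UMIs over 1430043 barcodes for the haplodeficient library. Kept barcodes had a median of 9160 UMIs in the control library and 5861.5 in the haplodeficient library, and their median mitochondrial share was 10.2% and 2.72%. Among kept barcodes, 28 sequences occurred in both libraries, and no barcode was a neutrophil in both.

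Neutrophils were 0.645% of kept barcodes in the control library (0.494 to 0.828) and 4.19% in the haplodeficient library (3.81 to 4.6), a ratio of 6.49 (4.95 to 8.64). The ratio was 3.75 with a mitochondrial limit of 10%, which leaves 55 and 412 neutrophils. Among barcodes with a UMI of Ptprc, the gene of the leukocyte antigen CD45, neutrophils were 50 of 1651 (3.03%) in the control library and 350 of 4029 (8.69%) in the haplodeficient library, a ratio of 2.87 (2.13 to 3.94). The share of neutrophils was thus higher in the haplodeficient library on each of these denominators, by different amounts. Just inside the threshold on S100a8 and S100a9, 12 control and 43 haplodeficient neutrophils held 20 to 29 UMIs of the pair. Just outside it, 12 and 62 barcodes that met the other conditions held 10 to 19. Of barcodes with at least 20 such UMIs, 5 of 66 and 72 of 492 were left out by the receptor, C1q or Cd3e conditions.

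The neutrophils were of unequal depth, as the plot of UMIs against S100 share shows. Most held at most 6000 UMIs: 55 control barcodes with a median of 1639 and 384 haplodeficient barcodes with a median of 1882.5. The remaining 6 control and 36 haplodeficient barcodes held more than 6000 UMIs, with medians of 32363 and 11410.5. In these deep barcodes S100a8 and S100a9 made up a median of 0.240% and 0.766% of UMIs, against 4.91% and 5.98% in the shallower ones. The doublet caller Scrublet marked 5 of the 6 and 19 of the 36. Deep barcodes held 69.6% of all neutrophil UMIs in the control library and 44.3% in the haplodeficient library, so a sum over all members is weighted to them. The values below are therefore over the 55 and 384 neutrophils of at most 6000 UMIs unless all 61 and 420 are named.

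**Figure D1:**
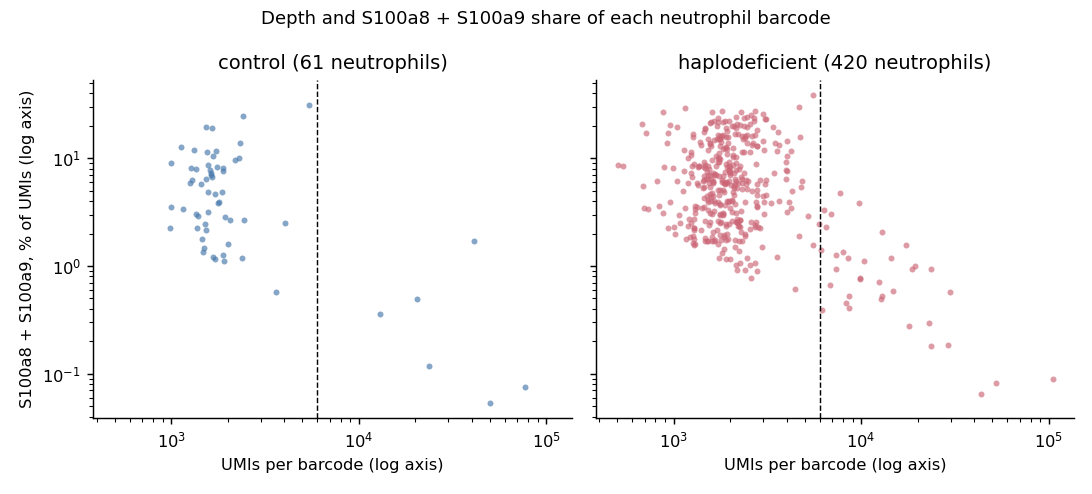
Each point is 1 neutrophil, placed by its UMIs and by the percent of its UMIs from S100a8 and S100a9, both on log axes, for the control (left) and haplodeficient library (right). The dashed line marks 6000 UMIs: the 6 and 36 barcodes to its right have median S100 shares of 0.240% and 0.766%, against 4.91% and 5.98% to its left.

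The neutrophil label was examined on 16 genes of neutrophils that the rule did not use. The list was not measured in other cell classes, so it does not separate neutrophils from them. All 16 genes had enough counts to be compared, and none had 0 UMIs in either library. Their summed level was 29430 CPM (UMIs scaled to a total of 1000000 over the neutrophils of a library) against 29238 CPM, a ratio of 0.993 (0.956 to 1.03). Il1b, the interleukin-1 beta gene, is 1 of the 16 and was at 10539 and 13250 CPM. Of the 16 log2 ratios 13 were below 0, with a median of -0.25. Over all 61 and 420 members the ratio of the sums was 1.70 (1.64 to 1.76). The genes that chose the members are given only as levels: Csf3r, the receptor for granulocyte colony-stimulating factor, was at 2015 and 1365 CPM, Cxcr2, the receptor for Cxcl2 and related chemokines, at 861 and 676, and Retnlg, a secreted resistin-like protein, at 5092 and 3178. The largest single contribution to Retnlg was 1 control barcode with 46.3% of its UMIs.

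Markers of other cells were present, at unequal levels. The 10 proximal tubule markers summed to 2227 CPM (1943 to 2542) in control neutrophils and 496 CPM (448 to 547) in haplodeficient neutrophils, with none at 0, and 4 of them, among these Slc34a1, Kap and Gpx3, were lower by the size rule given below. The 10 distal nephron markers summed to 1448 and 658 CPM, and the 8 endothelial markers to 111 and 14.0 CPM, with 4 and 3 of the 8 at 0. The 10 macrophage markers went the other way, at 263 CPM (172 to 386) and 802 CPM (741 to 867), with 3 and 1 at 0. Of their UMIs, Apoe alone held 7 of 26 in control and 451 of 631 in haplodeficient neutrophils. Apoe was also found in 48.0% of control and 76.8% of haplodeficient barcodes of tubule cells, defined below. The 8 monocyte markers were at 314 and 455 CPM. Of 10 markers of T and NK cells, 8 and 5 were at 0, and of 10 markers of eosinophils, basophils and mast cells, 10 and 8 were at 0. An estimate of free RNA from barcodes of 1 to 100 UMIs put 11.6% of control and 3.83% of haplodeficient neutrophil UMIs down to it. The part of these transcripts in the results was not tested, and values are given beside the results they touch.

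A gene was compared if its mean CPM over both libraries was at least 50 with at least 30 UMIs in all. It counted as higher or lower in haplodeficient neutrophils if the log2 ratio, with 5 CPM added to each side, was at least 1 in size and the counting intervals did not overlap. Of 2741 genes compared, 50 were higher (1.82%) and 104 lower (3.79%), 5.62% in either direction, and the median log2 ratio was -0.09. With median-of-ratios scaling the split was 72 higher and 73 lower. Of 12 mitochondrial genes compared, 9 passed the rule without that scaling. The median mitochondrial share was 1.22% in control and 0.392% in haplodeficient neutrophils. Over all members, 3672 genes were compared, with 181 higher (4.93%) and 534 lower (14.5%). Only 20 of those 534 lower genes were also lower at up to 6000 UMIs, and 431 had too few counts there to be compared. Of the 50 higher genes, 27 were also among the 181.

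Transcripts of primary granule proteins were scarce in neutrophils of both libraries. The 6 primary granule genes matched held 2 control and 32 haplodeficient UMIs in all, with 5 and 4 of the 6 at 0, and nearly all haplodeficient UMIs (31) were of Prtn3, the serine protease proteinase 3. The 19 genes of immature cells summed to 1670 CPM (1425 to 1946) and 1617 CPM (1529 to 1708), a ratio of 0.968 (0.822 to 1.15), and none of the 4 compared was past the size rule. Over all members that ratio was 1.18 (1.05 to 1.32). Among secondary granule genes, 0 of 12 compared were past the rule, and the list's sum was 6145 and 6230 CPM, a ratio of 1.01 (0.932 to 1.10).

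Transcripts of the classical secondary granule proteins came from few barcodes. Ngp, a neutrophilic granule protein of precursors, had 26 UMIs in 2 of 55 control barcodes and 135 UMIs in 6 of 384 haplodeficient barcodes, and 1 barcode in each held 84.6% and 60.7% of them. Camp, the cathelicidin precursor, had 2 UMIs in 1 control barcode and 39 in 3 haplodeficient barcodes. Ltf, which encodes lactoferrin, was at 40.5 CPM (11 to 104) and 57.2 CPM (41.7 to 76.5), with 4 and 45 UMIs, so the intervals overlapped. Lcn2, the iron-siderophore binding lipocalin that injured tubules also make, was at 1104 CPM (906 to 1331) and 1033 CPM (963 to 1107). Cybb, the catalytic subunit of the phagocyte oxidase, was at 40.5 CPM (11 to 104) and 119 CPM (96.5 to 146); it was not past the rule, but it was without the barcode in each library with most of its UMIs, at a log2 ratio of 2.08.

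Genes of the gelatinase granule and of mature cells lay slightly lower in haplodeficient neutrophils without any single gene passing the rule. Their sum was 19539 CPM (18677 to 20431) against 16670 CPM (16386 to 16958) with haplodeficiency, a ratio of 0.853 (0.813 to 0.895), with 15 of 16 log2 ratios below 0 and a median of -0.30. Mmp9, the gelatinase itself, was at 1184 CPM (980 to 1420) and 968 CPM (901 to 1040). It was detected in 38 of 55 and 272 of 384 barcodes. Ly6g, the antigen of the neutrophil antibody 1A8, was sparse, with 9 UMIs (91.1 CPM) in 3 control and 40 UMIs (50.8 CPM) in 22 haplodeficient barcodes. Over all members the sum of this list had a ratio of 1.53 (1.47 to 1.60), the opposite side of 1.

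Homing and adhesion genes followed the same side. The 26 genes of adhesion and chemoattractant receptors summed to 7694 CPM in control and 5910 CPM in haplodeficient neutrophils, a ratio of 0.768 (0.711 to 0.830), with 15 of 19 compared below 0. Over all members the ratio was 1.34 (1.26 to 1.43). Itgal, the alpha chain of the integrin LFA-1, was lower, at 334 CPM (230 to 469) and 155 CPM (129 to 185), a log2 ratio of -1.08. Ltb4r1, the high-affinity receptor for leukotriene B4, was higher, at 50.6 CPM (16.4 to 118) from 5 UMIs and 161 CPM (135 to 192) from 127 UMIs. The call was made in 7 of 9 alternative settings over these barcodes for Itgal and in 6 of 9 for Ltb4r1. Neither gene had a UMI in 333 control and 56 haplodeficient barcodes of tubule cells (at least 3 UMIs of Slc34a1 and Lrp2, no Ptprc, 1000 to 3000 UMIs), which serve below as a background for free RNA. Cxcr4, the receptor that returns aged neutrophils to marrow, was at 263 CPM (172 to 386) and 159 CPM (132 to 189), and its intervals overlapped.

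Activation genes summed to a higher level in haplodeficient neutrophils. Of 32 activation genes compared, 4 were higher (Il1a, Cxcl10, Ccl3 and Ccl4) and 0 lower, beside 1.82% higher among all genes. The list summed to 68275 CPM (66655 to 69924) in control and 89477 CPM (88818 to 90141) in haplodeficient neutrophils, a ratio of 1.31 (1.28 to 1.34). Of the 32 log2 ratios 19 were above 0 and 13 below, with a median of 0.23 against -0.09 for all genes. Abundant members that were not past the rule lay higher in the sum, among them Cxcl2, Il1b and Fth1, the ferritin heavy chain gene, which was at 17696 CPM (16876 to 18546) and 23764 CPM (23425 to 24107). Free RNA also held Fth1, at 6058 and 8215 CPM, and its part in the list was not tested. Over all members the ratio was 2.20 (2.15 to 2.25), with 16 of 33 higher.

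Cxcl2 encodes a chemokine through which neutrophils recruit more neutrophils. The gene lies at chr5:90903871-90905938 on the plus strand of GRCm38. It had 1188 UMIs (12027 CPM, 11353 to 12731) in control and 16578 UMIs (21069 CPM, 20749 to 21392) in haplodeficient neutrophils, a ratio of 1.75 (1.65 to 1.86) and a log2 ratio of 0.81, under the size limit. It was detected in 50 of 55 and 338 of 384 barcodes, and its share of a barcode's UMIs had a median of 0.660% (0 to 7.13) and 1.64% (0 to 17.3), so the barcodes of both libraries overlapped widely. Il1b, which encodes the precursor of interleukin-1 beta, was at 10539 CPM and 13250.2 CPM, a ratio of 1.26 (1.18 to 1.34), and was found in 54 of 55 and 372 of 384 barcodes. Over all members both genes were past the rule, with log2 ratios of 1.77 for Cxcl2 and 1.18 for Il1b.

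The macrophage inflammatory protein chemokines were higher in haplodeficient neutrophils. Ccl3, at chr11:83647844-83649355 on the minus strand, had 45 UMIs in 7 of 55 control barcodes (456 CPM, 332 to 610) and 1300 UMIs in 145 of 384 haplodeficient barcodes (1652 CPM, 1564 to 1744), a log2 ratio of 1.85. With each barcode thinned to 1000 UMIs, 11.3% and 33.1% held a Ccl3 UMI. Ccl4, its neighbour in sequence and receptor use, was at 769 CPM (606 to 963) in 7 barcodes and 1899 CPM (1804 to 1997) in 111 barcodes, a log2 ratio of 1.30. The control levels rest on few cells, since 1 barcode held 48.9% of control Ccl3 UMIs and 1 held 64.5% of control Ccl4 UMIs. Neither chemokine was detected in the tubule barcodes, of median depth 1975 and 1929 UMIs. That allows shares of up to 0.901% and 5.36% by the floor, with exact upper limits of 1.10% and 6.38%. Macrophage-marker barcodes held Ccl3 at 290.2 and 397 CPM and Ccl4 at 802 and 1363 CPM. The macrophage markers in neutrophils were at 263 and 802 CPM, of which Apoe alone was at 70.9 and 573 CPM. The part of macrophage transcripts in both chemokines was not tested.

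Other cytokines varied in how far they differed. Il1a, the alarmin form of interleukin-1, was higher, at 121 CPM (62.8 to 212) in 7 control barcodes and 385 CPM (343 to 431) in 88 haplodeficient barcodes, a log2 ratio of 1.62. Its ratio was 3.17 (1.79 to 6.20), and 3.15 (2.91 to 3.41) in all kept barcodes other than neutrophils. In macrophage-marker barcodes it was 1.35 (1.23 to 1.47), and in monocyte-marker barcodes 0.924 (0.323 to 3.22). Tnf, the tumour necrosis factor gene, was at 263 CPM (172 to 386) and 441 CPM (396 to 490), a log2 ratio of 0.73 that was under the limit; without the barcode in each library with most Tnf UMIs it was 1.21, past the rule. Cxcl10, an interferon-induced ligand of Cxcr3, had 0 UMIs in control neutrophils and 126 UMIs in 17 haplodeficient barcodes (160.1 CPM, 133 to 191). That is at least 5.27-fold higher against a floor of 3 control UMIs, and the exact lower limit of the ratio was 4.23. Both values treat UMIs as independent. They do not cover the clustering of 126 UMIs in 17 of 384 barcodes, beside 55 control barcodes. Cxcl10 was also found in 3.30% of control and 1.79% of haplodeficient tubule barcodes, and over all members it was not past the rule, with 26 and 212 UMIs. Its ratio was 1.60 (1.46 to 1.77) in macrophage-marker barcodes. In monocyte-marker barcodes it was 22.8 (3.98 to 912), from 1 control UMI. Il1rn, the interleukin-1 receptor antagonist, was at 678 CPM (526 to 861) and 820.0 CPM (758 to 885).

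**Figure D2:**
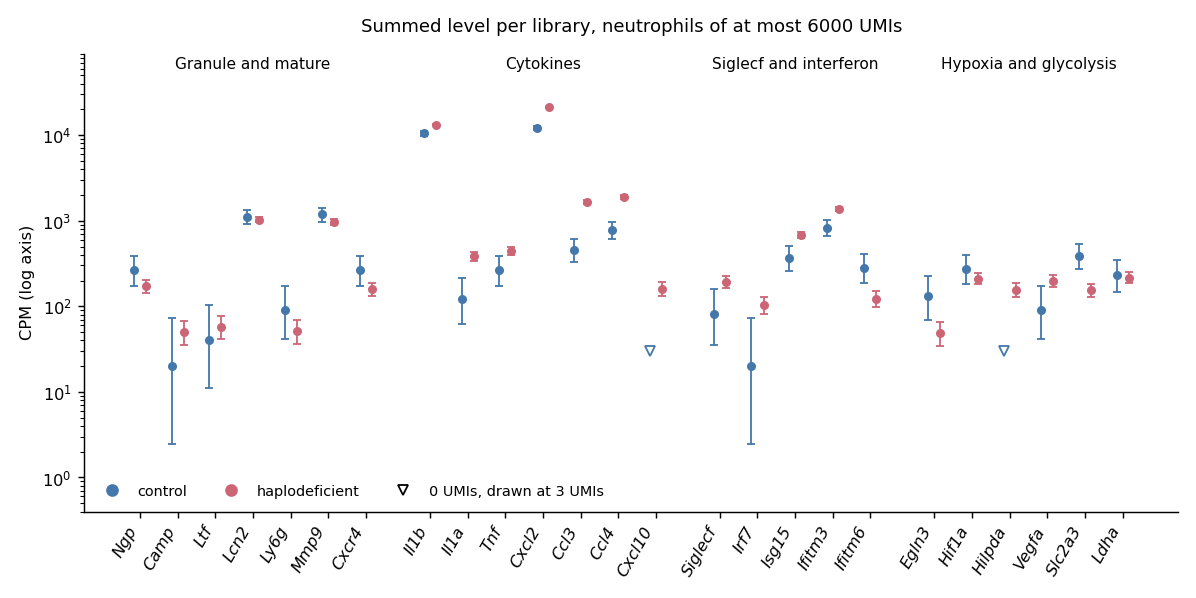
Points are the summed level in CPM (log axis) of each gene in neutrophils of at most 6000 UMIs, 55 control and 384 haplodeficient barcodes; bars are exact 95% Poisson intervals, and open triangles mark the level of 3 UMIs where a gene had 0. The intervals of Ccl3, Ccl4 and Il1a are apart with the haplodeficient library higher, those of Egln3 and Slc2a3 are apart with it lower, and those of Ngp, Camp and Ltf overlap.

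The promoters of the chemokine genes are shown because these genes lay higher together, at different sizes, and kappaB sites are a textbook feature of inflammatory chemokine promoters. Each stretch covers bases -250 to -31 from the RefSeq start in GRCm38.p6, 220 bases, 5′ to 3′ on the gene's strand. Capitals mark the letters GGGNNNTTCC, a kappaB form, searched on both strands. The windows are chr5:90903649-90903868 (plus) for Cxcl2, chr5:92348920-92349139 (minus) for Cxcl10 and chr11:83649409-83649628 (minus) for Ccl3.
Cxcl2: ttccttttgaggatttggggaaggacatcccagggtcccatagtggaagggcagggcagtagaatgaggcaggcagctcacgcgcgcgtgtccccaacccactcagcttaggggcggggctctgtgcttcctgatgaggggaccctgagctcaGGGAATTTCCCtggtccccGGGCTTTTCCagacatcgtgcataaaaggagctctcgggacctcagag
Cxcl10: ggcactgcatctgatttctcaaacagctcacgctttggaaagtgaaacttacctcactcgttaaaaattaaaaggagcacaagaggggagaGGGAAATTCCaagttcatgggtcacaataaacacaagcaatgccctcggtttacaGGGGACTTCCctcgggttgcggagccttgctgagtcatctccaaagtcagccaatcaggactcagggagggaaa
Ccl3: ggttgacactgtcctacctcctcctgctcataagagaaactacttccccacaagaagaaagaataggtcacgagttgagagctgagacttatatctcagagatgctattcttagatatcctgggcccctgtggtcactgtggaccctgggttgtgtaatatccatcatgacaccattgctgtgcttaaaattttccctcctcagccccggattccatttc
The Cxcl2 window held 3 matches, at -97 and -78 on the gene's strand and at -96 on the other strand, the first and last of these overlapping. The Cxcl10 window held 2, at -159 and -104, and these letters were not in the Ccl3 window. Of 32851 RefSeq promoters, 1263 (3.84%) held a match in the same window. A match describes letters only and is neither a shown site nor a cause.

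Siglecf, which encodes the sialic-acid binding receptor Siglec-F of eosinophils and of a tissue form of neutrophils, was higher in haplodeficient neutrophils. The gene lies at chr7:43351341-43359531 on the plus strand. It had 8 UMIs in 6 of 55 control barcodes (81.0 CPM, 35.0 to 160) and 152 UMIs in 102 of 384 haplodeficient barcodes (193 CPM, 164 to 226), a ratio of 2.39 (1.18 to 5.62) and a log2 ratio of 1.20. A Siglecf UMI was thus found in 10.9% and 26.6% of barcodes, and in 9.43% and 15.6% after thinning. The tubule barcodes held none, and all 10 markers of eosinophils, basophils and mast cells together held 0 control and 13 haplodeficient UMIs. The call is a marginal one, since it was made in 5 of 9 alternative settings over these barcodes.

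Of 26 genes compared in the list of tissue and long-lived neutrophils, Siglecf, Hilpda, Ccl3 and Ccl4 were higher and Rhov was lower, beside 1.82% higher and 3.79% lower among all genes, with a median log2 ratio of 0.00. Rhov, an atypical small GTPase, went from 10 UMIs (101 CPM, 48.5 to 186) to 20 UMIs (25.4 CPM, 15.5 to 39.3). That call was made in 5 of 9 alternatives and not without the barcodes with most Rhov UMIs. Vegfa, the vascular growth factor, was at 91.1 CPM (41.7 to 173) and 198 CPM (168 to 232), and its intervals overlapped. Without the barcode in each library with most Vegfa UMIs the log2 ratio was 2.44 in place of 1.08, past the rule. Runx1, a transcription factor of myeloid cells from the granulocyte factor list, was higher by a narrow margin, at 162 CPM (92.6 to 263) and 342 CPM (302 to 385), a call made in 4 of 9 alternatives.

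Within the haplodeficient library, the 102 neutrophils with a Siglecf UMI differed in several transcripts from the 282 without one. Those with Siglecf held a median of 2257 UMIs against 1776.5, which makes a UMI easier to find in them, so levels are given as CPM of the summed counts. Il1a was at 678 CPM (579 to 789) with Siglecf and 253 CPM (212 to 299) without, and Vegfa at 319 CPM (252 to 398) and 144 CPM (114 to 180). Hilpda, which encodes a lipid droplet protein induced by hypoxia, was at 327 CPM (259 to 407) and 77.5 CPM (55.8 to 105).

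Other transcripts lay the other way in the same split. Isg15, an interferon-induced ubiquitin-like protein, was at 241 CPM (183 to 311) with Siglecf and 889 CPM (812 to 972) without. Ngp was at 4.08 CPM, 1 UMI, and 247 CPM (207 to 293), and 1 barcode held 60.7% of its haplodeficient UMIs. Ltf, also a secondary granule gene, was at 36.8 CPM (16.8 to 69.8) and 66.4 CPM (46.5 to 91.9), and its intervals overlapped. Ccl3 was at 997 CPM (875 to 1130) with Siglecf and 1948 CPM (1832 to 2069) without, so it did not follow Il1a. Apoe, a macrophage marker that is also abundant in free RNA, was at 1140 CPM (1010 to 1281) with Siglecf and 317 CPM (272 to 368) without. Its part in the split was not tested. In the control library only 6 barcodes carried Siglecf, too few for the same split.

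**Figure D3:**
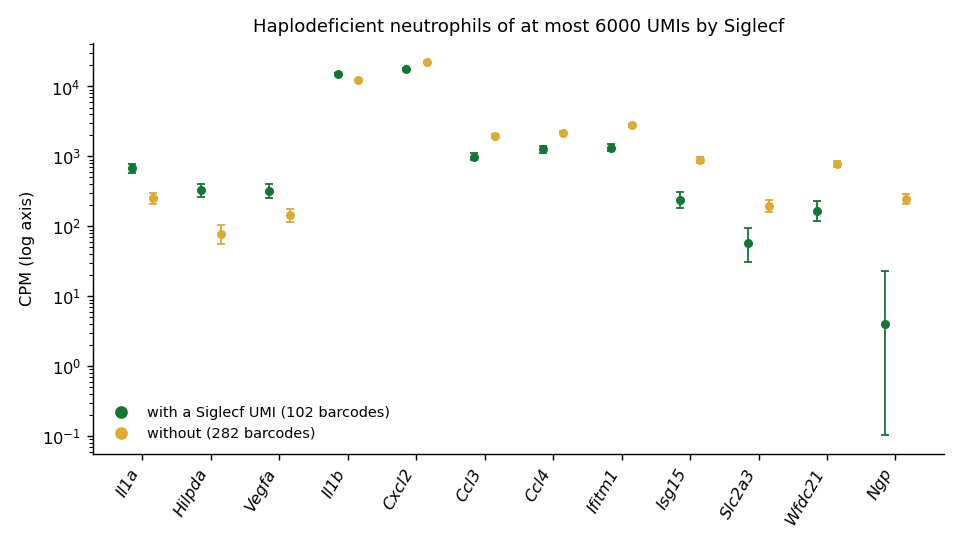
Summed level in CPM (log axis) in 102 haplodeficient neutrophils with a Siglecf UMI and 282 without, all of at most 6000 UMIs, with exact 95% Poisson intervals. Il1a, Hilpda and Vegfa lie higher with Siglecf, and Isg15, Wfdc21 and Ngp lie lower.

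Interferon-response genes lay slightly higher as a list in haplodeficient neutrophils. Of 23 compared, Irf7 and Cxcl10 were higher and Ifitm6 lower, beside 1.82% and 3.79% among all genes. Of their log2 ratios 17 were above 0, and the list summed to 10225 CPM (9604 to 10876) and 11964 CPM (11724 to 12208), a ratio of 1.17 (1.10 to 1.25). Over all members 11 of 25 were higher, beside 4.93% of all genes, with a ratio of 1.91 (1.81 to 2.02). Irf7, the amplifying transcription factor of the interferon response, had 2 UMIs in control and 81 in haplodeficient neutrophils, 20.2 and 103 CPM, a ratio of 5.08 (1.36 to 42.7). Isg15 was at 364 CPM (255 to 505) and 688 CPM (631 to 748), a log2 ratio of 0.91 under the limit. Without the barcode in each library with most Isg15 UMIs it was 1.08, past the rule. Both genes were also higher in macrophage-marker barcodes, with ratios of 1.79 (1.65 to 1.94) for Isg15 and 1.81 (1.61 to 2.03) for Irf7. In monocyte-marker barcodes these ratios were 1.73 (1.13 to 2.76) and 2.25 (1.31 to 4.15).

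The interferon genes did not all lie on 1 side. Ifit3, a canonical interferon-induced gene, had 3 and 24 UMIs, 30.4 and 30.5 CPM. Ifitm6, of the interferon-induced membrane proteins, was at 283 and 122 CPM, and 1 control barcode held 75% of its control UMIs. Without the barcode in each library with most Ifitm6 UMIs the log2 ratio was 0.41 in place of -1.18. The Ifitm genes are close copies, so their counts depend on how reads were assigned among them. In the antigen presentation list, Psmb8, an immunoproteasome subunit, was higher, at 121 CPM (62.8 to 212) and 283 CPM (247 to 323). That call was made in 7 of 9 alternatives. The ratio of Psmb8 was 2.33 (1.31 to 4.58), and 1.42 (1.36 to 1.48) in macrophage-marker barcodes. The other 9 genes compared in this list were not past the rule.

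Among oxygen-sensing genes, Egln3 itself was lower in haplodeficient neutrophils. Egln3 lies at chr12:54178981-54203860 on the minus strand. It had 13 UMIs in 8 of 55 control barcodes (132 CPM, 70.1 to 225) and 38 UMIs in 26 of 384 haplodeficient barcodes (48.3 CPM, 34.2 to 66.3), a ratio of 0.367 (0.191 to 0.751) and a log2 ratio of -1.36. A UMI was found in 14.5% and 6.77% of barcodes, and in 11.3% and 4.10% after thinning. Over all 61 and 420 members, with 14 and 48 UMIs, the ratio was 0.787 (0.427 to 1.55), so the difference was not detectable there. Without the 1 barcode in each library with most Egln3 UMIs the log2 ratio was -1.12, and the gene was no longer past the rule. The Egln3 call was made in 6 of 9 alternatives. A deletion at an exon need not show in reads from the 3′ end, and Cre was not directed at neutrophils, so these counts do not check the genotype.

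Egln3 transcripts were concentrated in neutrophils relative to the other myeloid barcodes. Barcodes with macrophage markers held 2.37 CPM (1.5 to 3.56) against 2.70 CPM (2 to 3.57) with haplodeficiency. Barcodes with monocyte markers held 0 UMIs, which allows up to 9.61 CPM by the floor (exact upper limit 11.8), and 7.4 CPM (3.19 to 14.6). All kept barcodes other than neutrophils held 3.84 CPM (3.49 to 4.2) and 5.63 CPM (5.19 to 6.10), and the tubule barcodes held none. Egln3 thus lay lower in haplodeficient neutrophils. Its ratio was 1.47 (1.30 to 1.66) over the remaining kept barcodes and 1.14 (0.681 to 1.96) in macrophage-marker barcodes. The remaining barcodes pool cell types in unequal shares. Ptprc was found in 1651 of 9452 control and 4029 of 10026 haplodeficient kept barcodes. The part of this mix in the ratio of 1.47 was not tested. The Egln3 promoter is shown because the gene is a textbook target of HIF, and capitals mark the core letters of a hypoxia response element, ACGTG, searched on both strands of chr12:54203905-54204124 (minus strand, bases -250 to -31, GRCm38.p6).
Egln3: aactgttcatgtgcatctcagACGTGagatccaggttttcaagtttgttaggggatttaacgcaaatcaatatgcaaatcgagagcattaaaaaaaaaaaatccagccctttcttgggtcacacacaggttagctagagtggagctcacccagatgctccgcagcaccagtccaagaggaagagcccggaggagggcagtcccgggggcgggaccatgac
The single match lies at -229 on the gene's strand, and 4746 of 32851 promoters (14.4%) hold these letters in the same window.

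**Figure D4:**
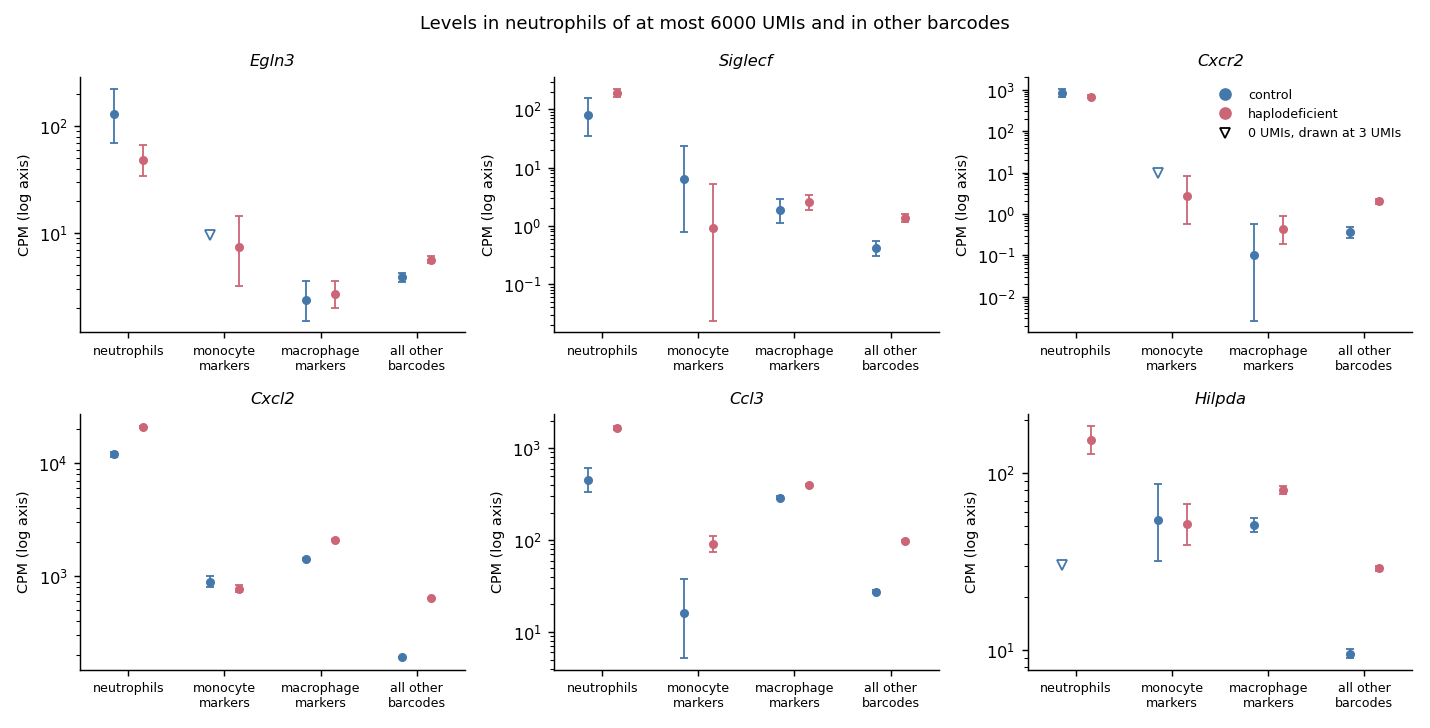
Level in CPM (log axis) of 6 genes in neutrophils of at most 6000 UMIs, barcodes with monocyte markers, barcodes with macrophage markers and all kept barcodes other than neutrophils, with exact 95% Poisson intervals and open triangles at the level of 3 UMIs where a gene had 0. Cxcr2 is a gene of the rule and is shown only as a reference; Egln3 and Siglecf are at 132 and 81.0 CPM in control neutrophils and under 10 CPM in the other classes.

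The remaining HIF genes were mostly at or below the control level. Hif1a, the oxygen-regulated subunit itself, was at 273 CPM (180 to 398) and 211 CPM (180 to 246). Of 14 HIF targets compared, Hilpda was higher and Egln3 lower, beside 5.62% called among all genes. Of their log2 ratios 11 were below 0 with a median of -0.51, and the 28 targets summed to 2349 CPM (2056 to 2671) and 1951 CPM (1854 to 2051), a ratio of 0.831 (0.723 to 0.958). Hilpda, at chr6:29272488-29275446 on the plus strand, had 0 UMIs in control neutrophils and 122 UMIs in 40 haplodeficient barcodes (155 CPM, 129 to 185). That is at least 5.11-fold higher against the floor, and the exact lower limit of the ratio was 4.09. Macrophage-marker barcodes also held Hilpda, at 51.0 and 80.4 CPM. Ndrg1, a HIF target that tubule cells also express, was at 142 CPM (77.5 to 238) and 61.0 CPM (45.0 to 80.9), and its free-RNA level was 849 and 272 CPM.

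Glycolysis genes gave a list ratio of 0.873 (0.793 to 0.962), from 4890 CPM (4463 to 5346) to 4269 CPM (4126 to 4416), with 11 of 17 log2 ratios below 0. Over all members the ratio was 1.02 (0.956 to 1.09). Slc2a3, the high-affinity glucose transporter GLUT3, was the single gene past the rule, at 385 CPM (272 to 528) and 154 CPM (128 to 184), a log2 ratio of -1.30. Of its 38 control UMIs, 1 barcode held 50%. Without the barcode in each library with most Slc2a3 UMIs the log2 ratio was -0.43, not past the rule. Ldha, which encodes lactate dehydrogenase A, was at 233 CPM (148 to 349) and 216 CPM (185 to 251). Slc2a1, the glucose transporter GLUT1, was at 213 CPM (132 to 325) and 145 CPM (120 to 174), and Hk2, a hexokinase, at 101 CPM (48.5 to 186) and 179 CPM (151 to 211).

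Other functional lists held no gene past the rule at up to 6000 UMIs. None was called among 7 oxidase genes, with a list ratio of 1.06 (0.961 to 1.18), 19 pattern and Fc receptors (0.958, 0.914 to 1.00), 21 survival and death genes (0.938, 0.887 to 0.992) or 9 metalloproteinase and matrix genes (0.785, 0.708 to 0.873). Genes induced by tissue dissociation, 15 compared, had a ratio of 0.973 (0.926 to 1.02), with 0 called. Of 12 cell cycle genes, 7 and 3 were at 0, and the 2 compared were not past the rule.

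**Figure D5:**
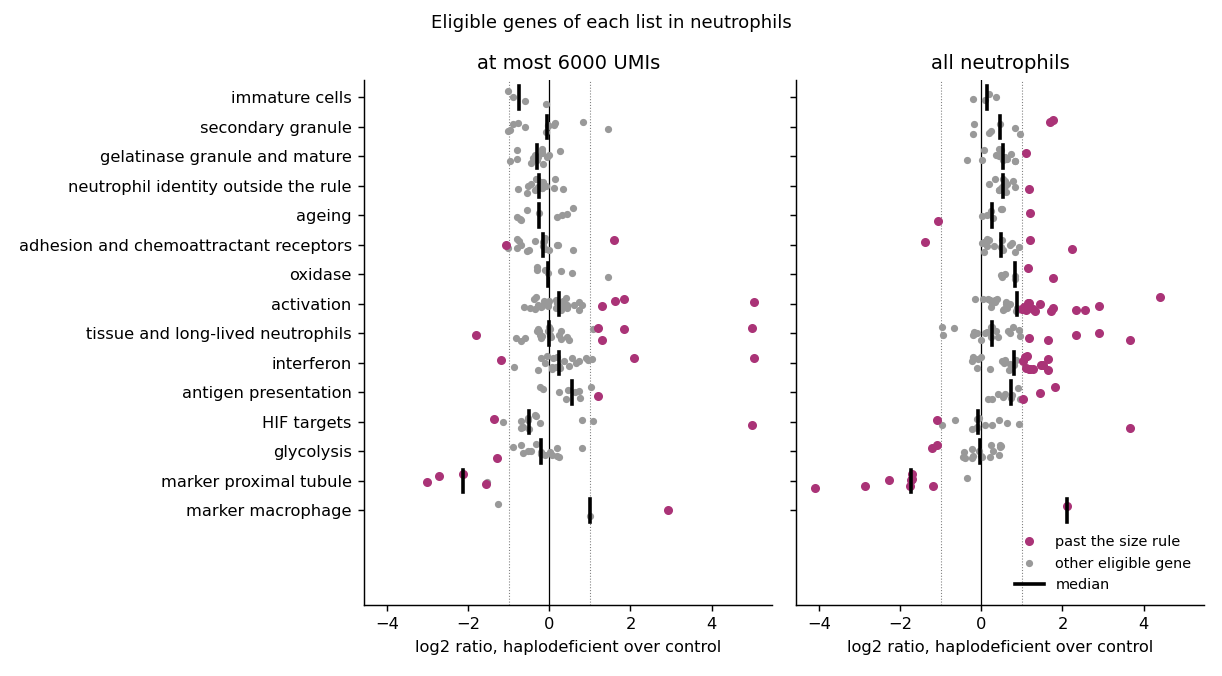
Each point is a compared gene of a list, placed by its log2 ratio of haplodeficient over control CPM with 5 CPM added, for neutrophils of at most 6000 UMIs (left) and all neutrophils (right); black bars are medians, dotted lines mark ratios of 1 in size, and dark points are past the size rule. Medians lie further right for all neutrophils, as for activation genes, with 4 of 32 past the rule on the left and 16 of 33 on the right; genes at 0 in the control lie near 5, which depends on the added 5 CPM.

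Outside the lists, the genes with the highest ratios had 0 to 3 UMIs in control neutrophils. Cxcl14, a chemokine, had 0 UMIs and 179 UMIs in 52 haplodeficient barcodes (227 CPM, 195 to 263). That is at least 7.49-fold higher against the floor of 3 UMIs, with an exact lower limit of 6.03. Cxcl14 was also at 108 and 301 CPM in macrophage-marker barcodes and at 12.1 and 59.2 CPM in all kept barcodes other than neutrophils, a ratio of 4.91 (4.64 to 5.2) in the latter. Rasip1, a Ras-interacting protein best known in endothelium, had 1 UMI and 189 UMIs in 116 barcodes, 10.1 and 240.2 CPM, a ratio of 23.7 (4.21 to 942). The 8 endothelial markers together held 11 UMIs in each library, and no Rasip1 UMI occurred in the tubule barcodes. Tex14, a gene of germ cell bridges, had 1 and 98 UMIs, a ratio of 12.3 (2.16 to 491). Plac8, expressed in many leukocytes, had 3 and 229 UMIs, a ratio of 9.58 (3.24 to 46.8), and it was found in 6.61% and 7.14% of tubule barcodes. Mgp, matrix Gla protein, owed 85.5% of its haplodeficient UMIs to 1 barcode. Without the barcode in each library with most Mgp UMIs it was not past the rule.

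Gdpd3, a lysophospholipase D, was higher in every class compared. It had 2 and 165 UMIs in neutrophils, 20.2 and 209.7 CPM, a ratio of 10.4 (2.82 to 86.2). Macrophage-marker barcodes held 20.9 and 124 CPM, and all kept barcodes other than neutrophils 5.93 and 49.9 CPM. The ratio in the latter was 8.41 (7.77 to 9.10), so the neutrophil interval includes that value. Grn and Mien1, the remaining 2 of the 8 genes with the highest ratios, had 1 UMI each in control and 87 and 82 in haplodeficient neutrophils. In control and haplodeficient tubule barcodes, Grn was found in 11.1% and 12.5% and Mien1 in 21.9% and 19.6%. Each call was made in 8 of 9 alternatives.

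The 8 lowest genes outside the lists were Slc4a4, Atp1b1, Timp3, Dach1, Spink1, Oat, Snhg8 and Tmem176b, with log2 ratios from -2.31 to -1.77. These calls were made in 3 of 9 alternatives for Snhg8, 4 for Slc4a4, Atp1b1, Spink1, Oat and Tmem176b, 5 for Timp3 and 6 for Dach1, and all but that of Timp3 were lost without the barcodes with most UMIs of the gene. Several are kidney genes, among them Slc4a4, the basolateral bicarbonate transporter of the proximal tubule, and Atp1b1, the beta subunit of the sodium pump. The proximal tubule markers, at 2227 and 496 CPM, moved with them, and their part in these 8 was not tested.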

How the data were processed

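The authors deposited UMI counts per gene over unfiltered barcodes, made with Cell Ranger 4 per the file headers on mm10 per the submitters' processing notes; the annotation release is not given in the sources used here. No sample tags of the hashing step were used here. Gene symbols came from the files, and 32158 of 32285 gene identifiers (99.6%) matched GENCODE M21, from which coordinates were taken. UMIs were summed over neutrophils of each library and divided by their total (CPM), with 95% exact Poisson, Clopper-Pearson and conditional binomial intervals. With 1 library per group no test was made. A gene was called by size: a mean of at least 50 CPM and 30 UMIs, a log2 ratio with 5 CPM added of at least 1, and intervals apart. Named genes were called or defining members of the lists, and the 8 most extreme genes outside them in each direction, without mitochondrial, ribosomal and Y-linked genes; some genes that this rule names are not reported here. Members and lists were chosen with earlier results of these data known, and the 6000-UMI limit after the depths were seen.

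Monocyte-marker barcodes had at least 3 UMIs of Ly6c2 and Ccr2 and at least 1 of Csf1r, and macrophage-marker barcodes at least 5 of C1qa, C1qb and C1qc, both with fewer than 20 of S100a8 and S100a9 and none of Cd3e. Scrublet marked 715 and 804 doublets at 0.8% per 1000 barcodes, which were kept except in an alternative. Barcodes were thinned to 1000 UMIs for shares, leaving out 2 control and 18 haplodeficient neutrophils. Python 3.11.15, numpy 2.4.6, scipy 1.17.1, pandas 2.3.3, scanpy 1.11.5 and matplotlib 3.10.9 were used, and the calling rule was tested on simulated data.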

Additional observations from a re-analysis of the deposited data

How the results depend on the processing

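No paired analysis was possible because each group is 1 library and the labels carry no replicate numbers. The following ratios are haplodeficient over control, and the list order is HIF targets, activation, glycolysis, immature cells and interferon. The ratio of neutrophil shares was 3.75 with a mitochondrial limit of 10%, 2.87 among barcodes with Ptprc, and 59.8 among barcodes with no UMI of C1q, proximal tubule, T or NK markers, which leave 5 control and 317 haplodeficient neutrophils.

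Over all members, the Egln3 ratio of 0.787 became 0.391 with S100a8 and S100a9 at 1% of UMIs or more, 0.318 as a mean of per-cell fractions, 0.367 both thinned to 1000 UMIs and at up to 6000 UMIs, and 0.272 at up to 3000 UMIs. The 181 higher genes became 89, 100, 34, 50 and 43 in the same order, and the 534 lower genes 242, 175, 69, 104 and 83. With no marker UMIs there were 27 higher and 131 lower, at a minimum of 10 CPM 336 higher, and at 100 CPM 107 higher and 262 lower.

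Activation moved from 2.20 to 2.07 (mitochondrial limit), 2.05 (at least 50 UMIs of S100a8 and S100a9), 1.49 (1% of UMIs), 1.64 (no doublets), 1.44 (no marker UMIs), 2.38 (median-of-ratios), 1.31 (per-cell mean), 1.30 (thinned), 2.46 (free RNA subtracted), 2.08 (no Ngp, Camp, Ltf or Fcnb UMI), 1.31 (up to 6000 UMIs) and 1.28 (up to 3000 UMIs). HIF targets moved from 0.880 to 0.988 (mitochondrial limit), 0.982 (1% of UMIs), 0.954 (median-of-ratios), 0.8004 (per-cell mean), 0.713 (thinned), 0.792 (no granule UMI) and 0.770 (up to 3000 UMIs), and lay on the other side of 1, at 1.76, with no marker UMIs. Glycolysis moved from 1.02 to 0.886 (no doublets), 0.862 (no marker UMIs), 1.10 (median-of-ratios), 0.908 (per-cell mean), 0.944 (thinned), 0.873 (up to 6000 UMIs) and 0.882 (up to 3000 UMIs).

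The immature list moved from 1.18 to 1.00 (1.003, mitochondrial limit), 1.03 (1% of UMIs), 2.51 (no marker UMIs), 1.02 (per-cell mean), 1.05 (thinned) and 1.38 (no granule UMI). It lay on the other side of 1 at 0.982 (at least 50 UMIs of S100a8 and S100a9), 0.810 (no doublets), 0.944 (free RNA subtracted), 0.968 (up to 6000 UMIs) and 0.837 (up to 3000 UMIs). Interferon moved from 1.91 to 1.69 (mitochondrial limit), 1.30 (1% of UMIs), 1.53 (no doublets), 2.07 (median-of-ratios), 1.26 (per-cell mean), 1.26 (thinned), 2.07 (no granule UMI), 1.17 (up to 6000 UMIs) and 1.26 (up to 3000 UMIs), and was 0.987 with no marker UMIs. The causes of these moves were not tested.

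At up to 6000 UMIs, Egln3 (0.274 to 0.435), HIF targets (0.734 to 0.887) and glycolysis (0.844 to 0.933) stayed below 1 in the alternatives run. The 50 higher genes became 30 (thinned), 88 (free RNA subtracted) and 97 (without each gene's top member), and the 104 lower genes 51 (thinned) and 41 (without the top member). Activation was 1.40 (median-of-ratios), 1.28 (per-cell mean), 1.24 (free RNA subtracted), 1.26 (no doublets) and 1.25 (mitochondrial limit), immature cells 1.57 (no granule UMI), and interferon 1.25 (median-of-ratios) and 1.09 (free RNA subtracted). Single genes turned direction as follows, as log2 ratios. Atp1b1 over all members was 0.10 (1% of UMIs), Epas1 2.86 (no marker UMIs) and 0.40 (up to 3000 UMIs), and Ifitm1 -0.91 (no marker UMIs). At up to 6000 UMIs Ifitm6 was 1.25 (no granule UMI) and 0.41 (without the top member), and Spink1 was 2.71 (free RNA subtracted). Depth limits the control side most, since 3 UMIs of its 98777 correspond to 30.4 CPM.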

Other observations

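Within haplodeficient neutrophils of at most 6000 UMIs, the 145 barcodes with a Ccl3 UMI and the 239 without had median depths of 1980 and 1814 UMIs. Ccl4 was at 4036 CPM (3815 to 4266) with Ccl3 and 508 CPM (446 to 576) without. Tnf was at 732 CPM (639.6 to 833) and 252 CPM (209 to 301), and Il1rn at 1305 CPM (1181 to 1439) and 504 CPM (442 to 571). Cxcl2, also a chemokine, was at 29342 CPM (28742 to 29951) and 15683 CPM (15330 to 16043). Siglecf was at 190.2 CPM (145 to 245) and 195 CPM (157 to 239), with intervals that overlap.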
